A study of Mus musculus with 8 samples.

Results

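Dmc1 and 9 other genes of meiotic chromosomes (Psmc3ip, Mnd1, Sycp1, Sycp2, Sycp3, Rec8, Smc1b, Hormad1 and Stra8) were followed in spontaneous mouse ovarian tumours with and without Nedd9. They were taken by gene name from the arrays, with every probe of each gene, which gave 15 of the 39429 probes. Of the 10 genes, 9 had a probe that passed the filter on dim signals, among 25536 such genes in all, and Sycp1 did not. Dmc1 was selected on its low signal in these same Nedd9-null arrays, so its values are a description with no test. The other 9 were chosen for their meiotic role, to ask whether they shared the difference of Dmc1. Since the comparison is the one that led to Dmc1, their test values describe these 8 tumours and are not independent support for a pattern.

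The arrays hold 4 Nedd9-null tumours and 4 Nedd9-WT tumours, each from 1 untreated female mouse. Both genotypes carry the TgMISIIR-TAg transgene on a C57BL/6J background, in which the Amhr2 (MISIIR) promoter drives SV40 large T antigen, a viral protein that inactivates RB and p53. That promoter is active in somatic cells of the ovary and the Müllerian tract. NEDD9 is a scaffold protein of focal adhesion signalling. Ages were not given in the sources used here, and neither were the exons that the null allele lacks. Whole tumour pieces were profiled, so that fewer cells of a type and less RNA per cell cannot be told apart.

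Meiosis begins when retinoic acid and germ cell factors switch on Stra8, whose product activates a large set of meiotic genes. Chromosomes then build a protein axis from the cohesin subunits REC8 and SMC1B, from HORMAD1 and from SYCP2 and SYCP3, and the transverse filament protein SYCP1 joins the paired axes as the synaptonemal complex. SPO11 cuts the DNA, and the meiotic recombinase DMC1 coats the broken ends and searches the homologous chromosome, helped by the HOP2-MND1 dimer encoded by Psmc3ip and Mnd1. In females these steps take place in fetal oocytes, and in males they recur in the adult testis. Several of these genes are also transcribed outside the germline in tumours, where they are counted among the cancer-testis or germline genes.

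Signals below are scaled so that 1000 is the 75th percentile of an array, and values are listed for replicates 1, 2, 3 and 4. A probe is called present where the scanner software marked it as well above background. Differences are Nedd9-null minus Nedd9-WT on the log2 scale with the standard error (SE) of limma, a linear model fitted over all 25536 genes, and a gene passes at a Benjamini-Hochberg adjusted p of 0.05. Between 73.0% and 84.6% of probes were present per array, and the number of arrays limits the precision. Nedd9 was 248, 88.6, 95.5 and 61.1 in Nedd9-null tumours and 2212, 1786, 2459 and 3605 in Nedd9-WT tumours, which fits the labels. Nedd9-null replicate 1 stood apart: it correlated at 0.886 to 0.920 with the other Nedd9-null arrays and at 0.938 to 0.973 with the Nedd9-WT arrays, so the results of the 10 genes are also given without it. One slide, scanned in 1 session, held the Nedd9-null arrays and another held the Nedd9-WT arrays, and slide, scan and genotype cannot be told apart.

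Dmc1 was measured by 3 probes, all on the minus strand of chromosome 15 in mm9, at chr15:79392424-79392483, chr15:79415293-79415352 and chr15:79419182-79419241. Their outer ends lie 26.8 kb apart. The first represents the gene below because it was the brightest; exon and UTR positions were not assigned. Only probes with 2 or more reading frames without a stop codon were considered for printing, which left out the brightest Dmc1 probe. The 60-base sequences of the other Dmc1 probes, which read separate stretches of the transcript, are shown. They stand with a probe for each of the genes whose products bind DMC1 on DNA (Psmc3ip, chr11:100954219-100954278, and Mnd1, chr3:83908923-83920359, where the probe spans a gap of the genome). All are written 5′ to 3′ as the array design gives them.
Dmc1, A_55_P2147066: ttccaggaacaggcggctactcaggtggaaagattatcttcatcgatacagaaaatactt
Dmc1, A_55_P2028698: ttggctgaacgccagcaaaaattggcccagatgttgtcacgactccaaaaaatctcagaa
Psmc3ip, A_52_P238044: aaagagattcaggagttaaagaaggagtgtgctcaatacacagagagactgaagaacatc
Mnd1, A_66_P138584: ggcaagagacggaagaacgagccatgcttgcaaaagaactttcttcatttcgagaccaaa

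The brightest Dmc1 probe had scaled signals of 11.4, 27.4, 29.1 and 24.0 in Nedd9-null tumours, against 407, 342, 1017 and 626 in Nedd9-WT tumours. Every Nedd9-WT tumour was above every Nedd9-null tumour, and Nedd9-null replicate 1, which resembled the Nedd9-WT arrays over all genes, had the lowest Dmc1 signal of the 8. On the log2 scale relative to the 75th percentile, Dmc1 averaged -5.53 ± 0.63 in Nedd9-null tumours against -0.87 ± 0.70 in Nedd9-WT tumours (SD, n = 4 each), a difference of -4.66 (SE 0.43), or 25.3-fold lower. Without Nedd9-null replicate 1 the difference was -4.35 (SE 0.38), or 20.4-fold lower. A difference this low or lower was found in 46 genes, 0.18% of all genes, and the median gene differed by 0.03.

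The other two probes gave the same picture. A_55_P2028698 read 12.6, 17.4, 19.3 and 12.9 in Nedd9-null tumours and 289, 231, 595 and 352 in Nedd9-WT tumours, a difference of -4.49 (22.5-fold lower). A_55_P2147066 read 8.1, 12.9, 9.1 and 9.3 in Nedd9-null tumours and 118, 83.6, 239 and 187 in Nedd9-WT tumours, a difference of -3.90 (14.9-fold lower). All 3 probes were present on all 8 arrays, but some low signals of the Nedd9-null tumours lay close to background. In Nedd9-null replicate 1 the deposited signal of A_55_P2147066 was 19.5, and the lowest present signal of that array was 14.1. Over the 8 arrays the probes correlated with each other at 0.991 to 0.993, a description of values that share the same arrays. With another background correction, normexp with an offset of 50 added to every spot, the difference of the brightest probe was -3.70. That offset was above the deposited signal of this probe in Nedd9-null replicate 1 (27.5), so the size of the fold depends on the processing.

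**Figure D1:**
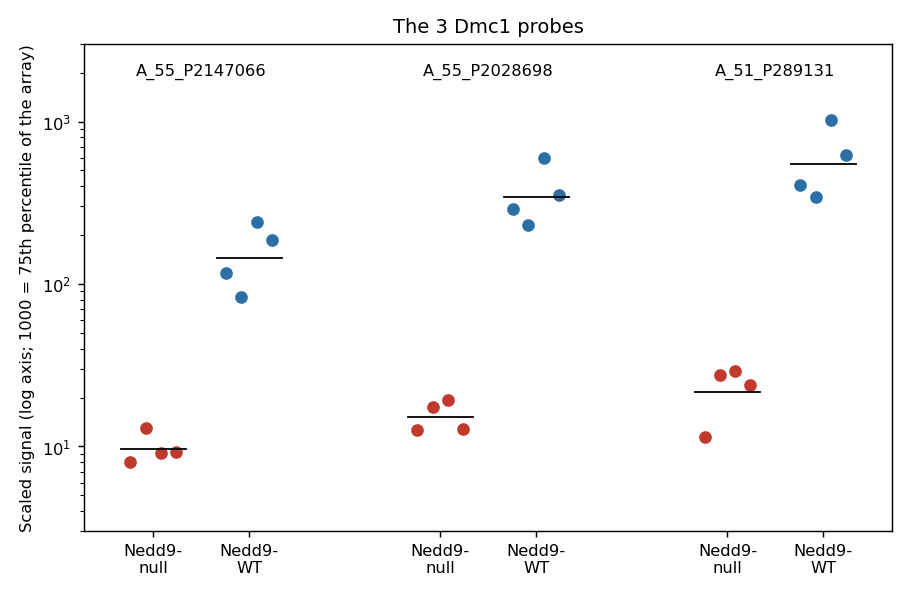
Scaled signal (log axis, 1000 = the 75th percentile of the array) of the 3 Dmc1 probes in 4 Nedd9-null (red) and 4 Nedd9-WT (blue) tumours, 1 point per tumour, with the mean of the log values as a line. For each probe the Nedd9-null points lie between 8.1 and 29.1 and all Nedd9-WT points lie higher, at 83.6 to 1017.

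The genes of DMC1's accessory dimer differed far less between genotypes than Dmc1, and in neither case beyond the spread between tumours. Psmc3ip, which encodes HOP2, read 1253, 1773, 2319 and 2608 in Nedd9-null tumours and 1931, 1893, 1831 and 1215 in Nedd9-WT tumours. The genotypes overlapped, with a difference of 0.18 (SE 0.28, limma adjusted p = 0.733) and of 0.38 without Nedd9-null replicate 1 (limma adjusted p = 0.307). With the median of each array as the scale, which moved the median of all genes to -0.16, Psmc3ip differed by -0.0098, so no direction is given for it. Mnd1 read 2076, 1292, 1779 and 1686 in Nedd9-null tumours and 2352, 2325, 3046 and 1601 in Nedd9-WT tumours at its brightest probe (chr3:83891877-83891936). The ranges overlapped, with a difference of -0.43 (SE 0.24, limma adjusted p = 0.317), and of -0.53 without Nedd9-null replicate 1 (limma adjusted p = 0.192). Its second probe, the one printed above, gave a difference of -0.50. Both genes were present on all 8 arrays.

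Stra8, the gatekeeper of meiotic entry, had a probe at chr6:34889237-34889296 and was dim throughout. It read 9.8, 11.7, 7.3 and 7.3 in Nedd9-null tumours, where it was present on all 4 arrays. In Nedd9-WT tumours it read 4.9, 2.0, 3.4 and 4.1 and no array was well above background. Against a floor of 5.55, set by the lowest present signals of the Nedd9-WT arrays, the Nedd9-null mean of Stra8 was 1.59-fold higher, on the other side from Dmc1. That bound holds only for the processing used here. Stra8 passed the filter on dim signals through the Nedd9-null arrays alone. The fitted difference of 1.38 (SE 0.31) missed the threshold over all genes with 8 arrays (limma adjusted p = 0.0871) and passed without Nedd9-null replicate 1 (1.33, limma adjusted p = 0.0389). The difference was 0.24 with the authors' deposited log2 table and 0.16 with normexp. The normexp offset of 50 was above every deposited Stra8 signal (6.3 to 40.4), so the size of the difference depends on the processing.

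Among the genes of the chromosome axis, Rec8 had the largest difference of the 8 measured genes other than Dmc1. Rec8, the meiotic cohesin subunit that holds sister chromatids until the second division, was measured at chr14:56244160-56244219. It read 1021, 9176, 9426 and 12431 in Nedd9-null tumours and 855, 173, 896 and 159 in Nedd9-WT tumours. Each Nedd9-null tumour was above each Nedd9-WT tumour, but Nedd9-null replicate 1 was barely so, while the other three stood about an order of magnitude higher. The difference was 3.92 (SE 0.96, 15.1-fold higher), with a limma adjusted p of 0.0928, and without Nedd9-null replicate 1 it was 4.75 (SE 0.71, 26.9-fold higher, limma adjusted p = 0.00469). Among the Nedd9-null tumours replicate 1 had the lowest signal for both Rec8 and Dmc1.

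Smc1b, the meiosis-specific partner of SMC3 in the cohesin ring, lies on the same chromosome as Dmc1 (chr15:84895193-84895252). Its signals were 79.3, 143, 439 and 201 in Nedd9-null tumours and 73.0, 537, 323 and 504 in Nedd9-WT tumours. The genotypes overlapped over most of their range (-0.67, SE 0.75, limma adjusted p = 0.629), and the difference was -0.28 without Nedd9-null replicate 1 (limma adjusted p = 0.841). Hormad1, an axis protein that promotes DNA breaks and monitors pairing, read 37.2, 24.6, 9.4 and 0.9 in Nedd9-null tumours and 14.4, 4.1, 3.2 and 6.9 in Nedd9-WT tumours (chr3:95389076-95389135). It was present on 3 Nedd9-null and 2 Nedd9-WT arrays, and its second probe on no array. Its difference was 0.64 (SE 1.14, limma adjusted p = 0.774) with 8 arrays and -0.026 without Nedd9-null replicate 1, so that tumour set its sign.

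The axis core genes were faint. Sycp3 (chr10:87935675-87935734) read 44.1, 19.2, 22.7 and 23.4 in Nedd9-null tumours and 26.3, 10.3, 13.7 and 16.8 in Nedd9-WT tumours, with overlapping ranges (0.71, SE 0.36, limma adjusted p = 0.270; 0.46 and 0.371 without Nedd9-null replicate 1). Its other probe was not well above background anywhere. Sycp2, the binding partner of SYCP3, read 11.6, 7.9, 10.1 and 7.5 in Nedd9-null tumours, where all 4 arrays were present, and 5.4, 4.4, 7.4 and 6.6 in Nedd9-WT tumours, where 2 were (chr2:178080000-178080059). The ranges just missed each other (0.64, SE 0.23, limma adjusted p = 0.152), and the difference was 0.52 without Nedd9-null replicate 1 (limma adjusted p = 0.162) and 0.16 with normexp. Sycp1, the filament of the central region (chr3:102622573-102622632), was present on 1 of 4 Nedd9-null arrays, replicate 1, at 10.6, and on 0 of 4 Nedd9-WT arrays, so no fold is given.

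**Figure D2:**
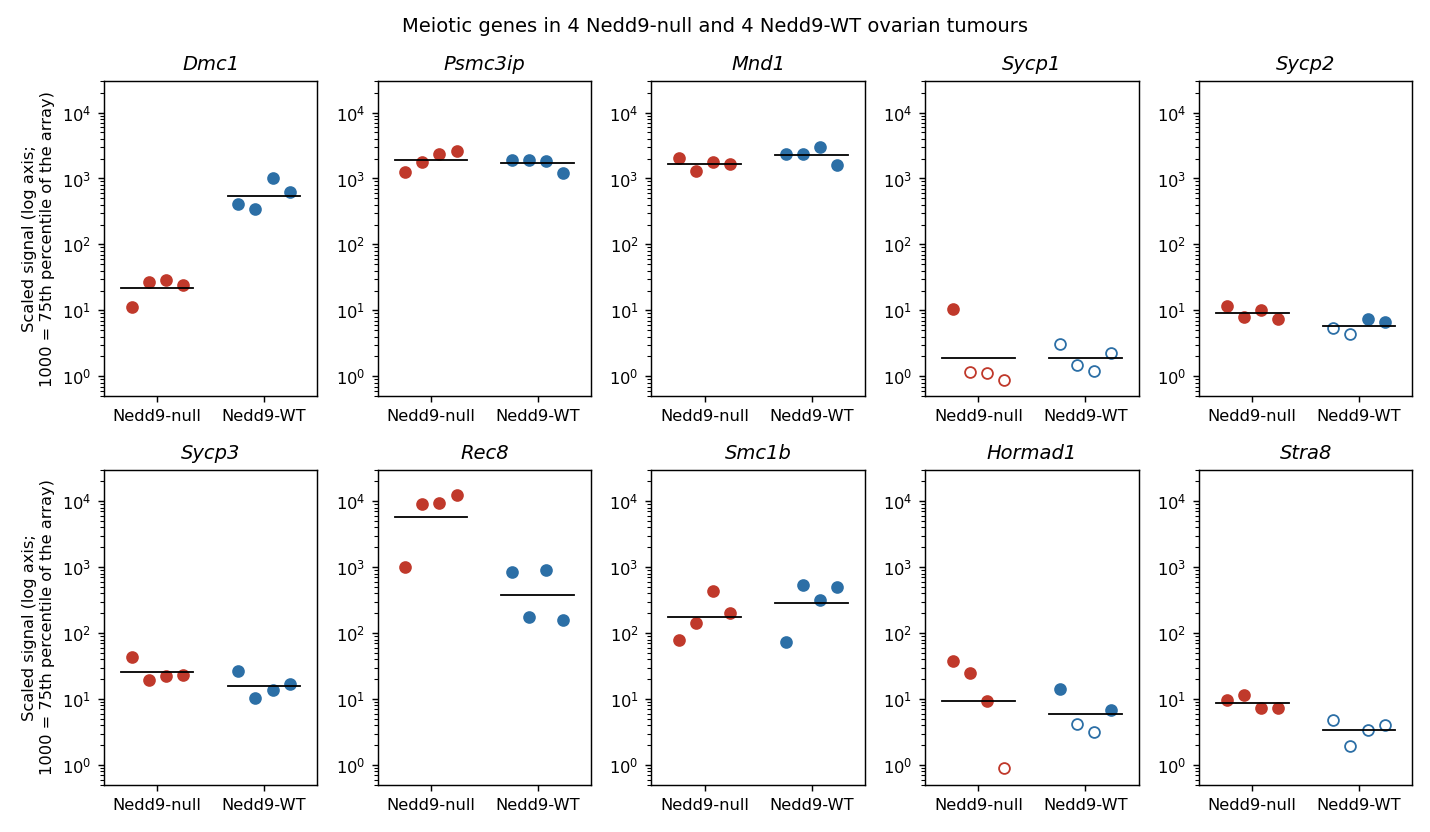
Scaled signal (log axis, 1000 = the 75th percentile of the array) of the 10 genes in 4 Nedd9-null (red) and 4 Nedd9-WT (blue) tumours, replicates 1 to 4 drawn left to right, with the mean of the log values as a line. Filled points were well above background and open points were not. Dmc1 is lower in all Nedd9-null tumours, Rec8, Sycp2 and Stra8 are higher in all of them, and the remaining genes overlap between genotypes.

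Set side by side, none of the 8 other measured genes had a difference as low as that of Dmc1, and none passed over all 8 arrays. Stra8 and Sycp1 were present on 0 Nedd9-WT arrays and Sycp2 and Hormad1 on 2. A loss as large as that of Dmc1 could therefore not be seen in these genes. Sycp3 read only 10.3 to 26.3 in Nedd9-WT tumours, which left little room for such a loss. Of the 8 measured, 2 (Mnd1 and Smc1b) had differences below 0, as did 47.8% of all genes, and 6 above 0. The 6 include Psmc3ip, whose sign changed with the scale, and Hormad1, whose sign rested on 1 tumour. They also include Stra8, Sycp2 and Hormad1, which passed the filter on dim signals through the Nedd9-null arrays alone, so the count is no sign of a direction. Among the 5 genes present on all 8 arrays, Mnd1 and Smc1b were below 0 and Psmc3ip, Sycp3 and Rec8 above. The median difference of the 8 was 0.64, and that of all genes was 0.03. With limma, 0 of the 8 passed (0.0666% of all genes did), and 3 had an unadjusted p under 0.05, which 23.9% of all genes had. Rec8, Stra8 and Sycp2 were higher in every Nedd9-null than in every Nedd9-WT tumour, as were 7.15% of all genes, and 0 of the 8 were lower in that way, as were 5.56% of all genes. Without Nedd9-null replicate 1, 2 of the 8 passed, both higher (Rec8 and Stra8), where 18.7% of all genes passed, 10.3% higher and 8.37% lower. Sycp1 is left out of these counts.

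The genes beside Dmc1 were compared next, to see whether the region as a whole was lower. The farthest of the 5 measured genes on each side lies 138 kb from the Dmc1 probe. The nearest on the lower side, the RNA helicase gene Ddx17 at 34.1 kb, differed by -0.42 (SE 0.15, limma adjusted p = 0.146). The nearest on the upper side, Fam227a at 53.4 kb, was higher by 1.71 (SE 0.46, limma adjusted p = 0.105), and by 2.19 without Nedd9-null replicate 1 (limma adjusted p = 0.000604). The next, an Ensembl transcript with no gene name on the array, was higher by 2.07 (SE 0.25, limma adjusted p = 0.0557), and by 2.21 without that tumour (limma adjusted p = 0.00159). The other 7 differed by between -0.77 (Josd1) and 0.27 (Kcnj4). None of the 10 neighbours had a difference below that of Josd1.

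The same was done around Rec8, a choice made after its values were seen. All 10 neighbours were higher on average in Nedd9-null tumours, and 0 passed limma with 8 arrays. Ipo4, an importin gene whose probe lies 0.618 kb from that of Rec8, differed by 1.46 (SE 0.26, limma adjusted p = 0.069). Irf9, part of the interferon-activated factor ISGF3, differed by 1.65 (SE 0.33, limma adjusted p = 0.079). The ubiquitin-like modifier gene Nedd8 differed by 0.98 (SE 0.19, limma adjusted p = 0.0758), and Emc9 by 0.02. Without Nedd9-null replicate 1, Ipo4 (1.68, limma adjusted p = 0.00145) and Irf9 (1.93, limma adjusted p = 0.00296) were among 7 of the 10 that passed, all higher, as 10.3% of all genes did. Whether Rec8 and its neighbours moved independently was not tested.

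**Figure D3:**
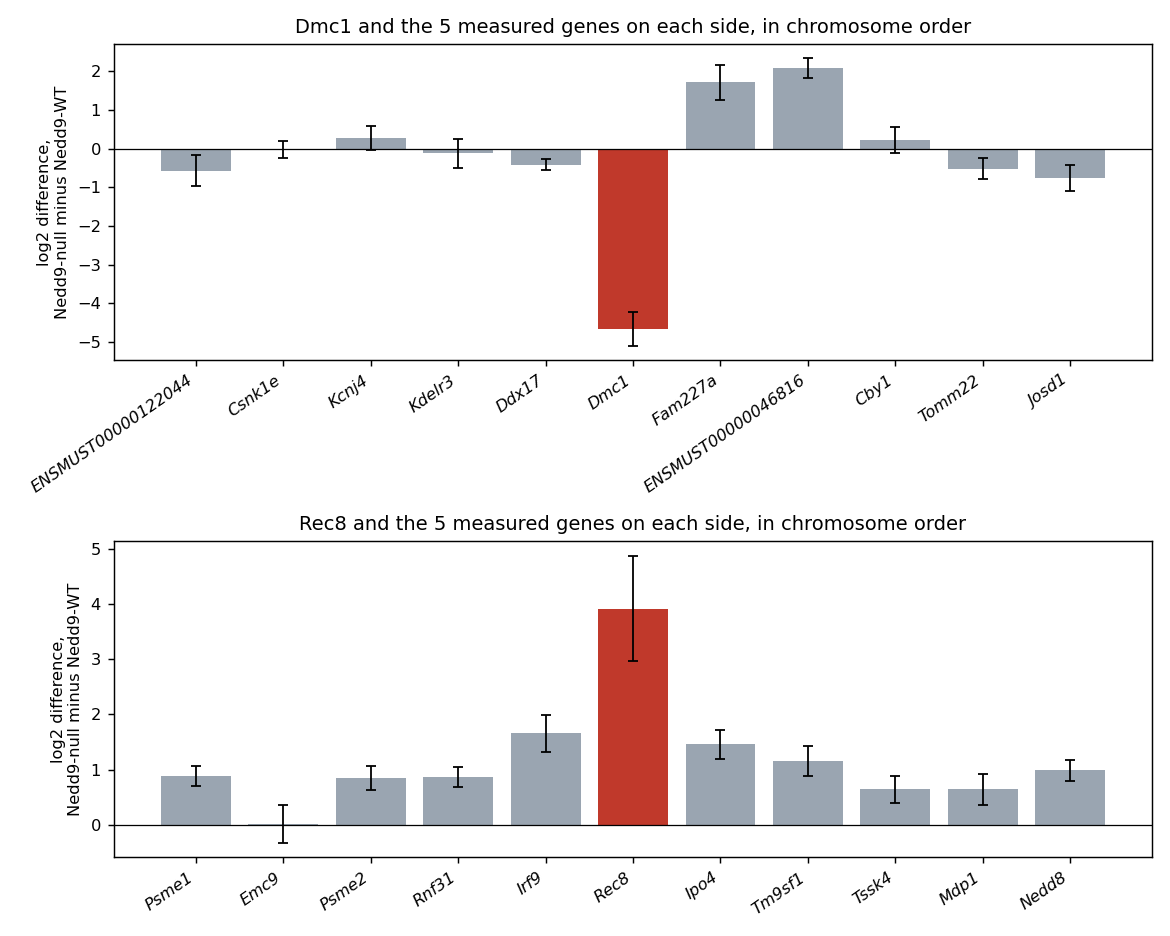
Difference in log2 signal, Nedd9-null minus Nedd9-WT over all 8 arrays, of Dmc1 (upper panel) and Rec8 (lower panel) and of the 5 measured genes on each side in chromosome order, with the SE of the limma fit as error bars. Dmc1, at -4.66, stands alone among neighbours at -0.77 to 2.07, while Rec8, at 3.92, stands among neighbours at 0.02 to 1.65.

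Other genes of meiosis, of related pathways and of cell types were read from 18 lists, in all 199 measured genes. With 8 arrays 0 of the 199 passed limma (0.0666% of all genes did), 65 had an unadjusted p under 0.05 (23.9% of all genes did), and 109 had differences below 0 (47.8% of all genes did). Of the 65, 13 were ciliated oviduct genes and 10 were granulosa and steroidogenic genes. The lists of meiosis, from entry to telomere attachment, gave 0 to 3 each, out of 3 to 11 measured genes. Of the 11 measured partners of strand exchange, 6 were lower and 5 higher (median -0.18). Meiob, whose product binds single-stranded DNA at breaks with SPATA22, differed by 0.55 (SE 0.17, limma adjusted p = 0.116), with 40.0 to 47.4 in Nedd9-null tumours against 24.5 to 35.7 in Nedd9-WT tumours. Hfm1, a helicase gene of crossover formation, differed by -1.17 (limma adjusted p = 0.138), and Rad54b, a DNA translocase gene of homologous recombination, by -0.63 (limma adjusted p = 0.149). These partners of DMC1 were measured in both genotypes and had no common direction.

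Genes of break formation, meiotic entry and crossover had medians near that of all genes. Of 6 measured genes of break formation, 3 were higher and 3 lower (median -0.02), and Prdm9, which places the breaks by marking histones, differed by -0.67 (SE 0.30, limma adjusted p = 0.219). Of 5 measured entry genes, 2 were higher and 3 lower (median -0.06). Bhmg1, which encodes MEIOSIN, the partner of STRA8, differed by 0.40 (limma adjusted p = 0.276). Of 8 crossover genes, 3 were higher and 5 lower (median -0.02). In none of these 3 lists did a gene pass without Nedd9-null replicate 1, where 18.7% of all genes passed.

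The structural lists were small and mixed. Of 3 measured genes of the synaptonemal complex, Fkbp6, which encodes a co-chaperone found on it, differed by -4.45 (SE 1.60, limma adjusted p = 0.152), with signals of 4.9 to 1039 in Nedd9-null tumours against 332 to 1396 in Nedd9-WT tumours. The top Nedd9-null value was replicate 1, and without it the difference was -6.12 (limma adjusted p = 0.00179). Syce3 differed by -1.95 and Syce2 by 0.14. Among 3 genes of meiotic cohesin and the centromere, Stag3, a partner of REC8, differed by -1.76 (SE 0.77, limma adjusted p = 0.213), in the opposite direction to Rec8. Meikin, which protects centromeric cohesion, differed by 1.60 (limma adjusted p = 0.0864, and 0.0336 without Nedd9-null replicate 1). It was present on 4 Nedd9-null and 1 Nedd9-WT arrays, so it passed the filter on dim signals through the Nedd9-null arrays alone. Of 7 genes that tether telomeres to the nuclear envelope, Majin differed by 2.09 (SE 0.31, limma adjusted p = 0.0599), and by 2.27 without that tumour (limma adjusted p = 0.00272).

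Somatic recombination and mitotic cohesin were checked as the counterparts, in dividing cells, of the meiotic genes. Of 20 genes of somatic recombination, 17 were lower and 3 higher, by a median of -0.24. With Nedd9-null replicate 1, 0 passed limma (0.0666% of all genes did), and without it 0 passed (18.7% did). Palb2, which links BRCA1 to BRCA2, differed by -0.48 (limma adjusted p = 0.19). Of 12 mitotic cohesin genes, 7 were lower and 5 higher (median -0.23); Nipbl, the cohesin loader, differed by -0.65 (limma adjusted p = 0.0977; 0.0221 without Nedd9-null replicate 1) and Smc1a by 0.45. Of 18 proliferation genes, 10 were lower and 8 higher (median -0.13), and the list scores, the mean log2 differences from the Nedd9-WT mean, overlapped between genotypes (-0.23 to 0.07 in Nedd9-null tumours against -0.34 to 0.27 in Nedd9-WT tumours).

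**Figure D4:**
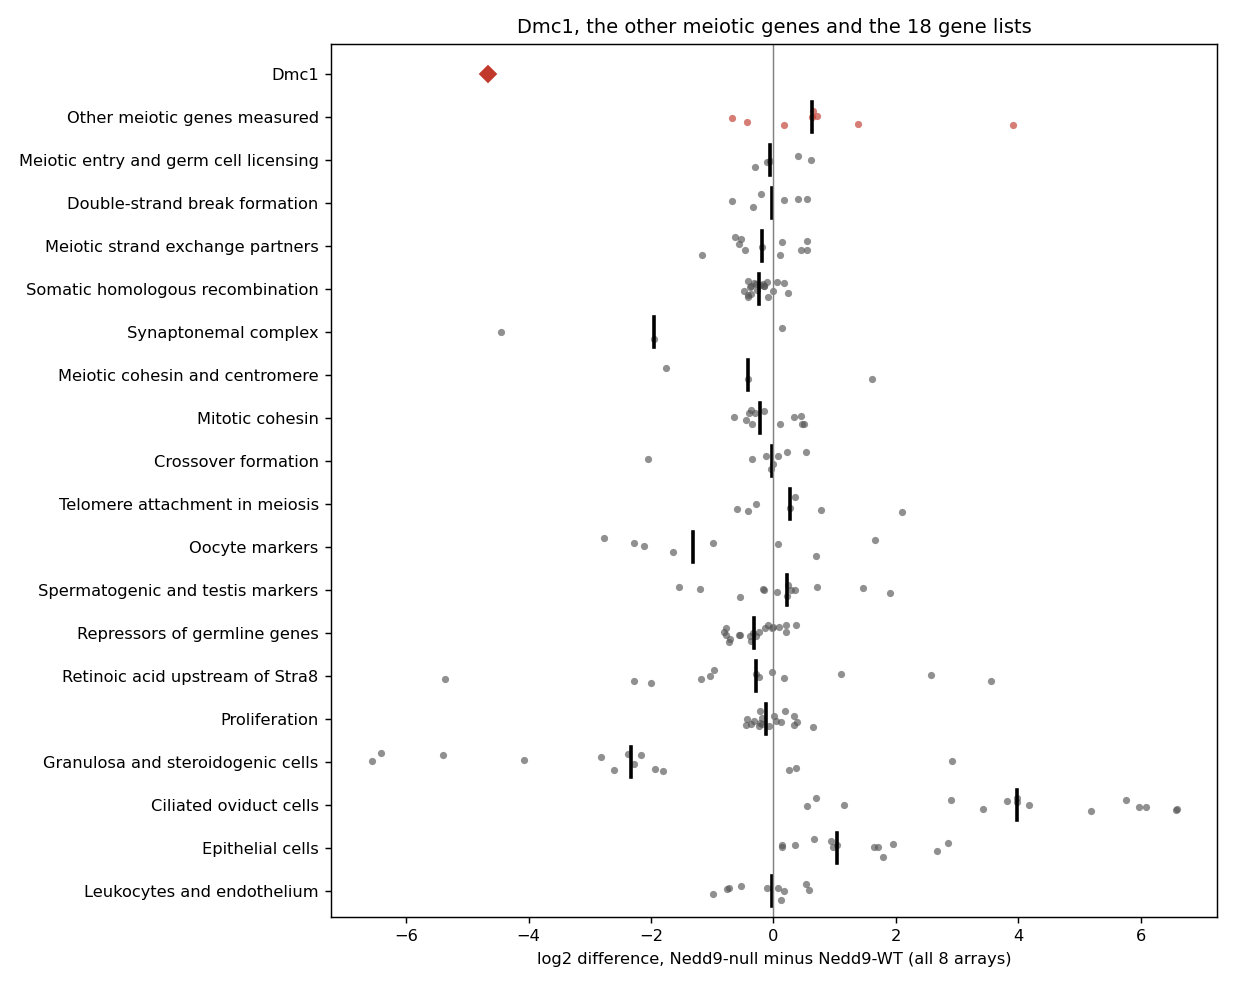
Difference in log2 signal, Nedd9-null minus Nedd9-WT over all 8 arrays, of Dmc1 (diamond), of the 8 other measured genes and of the members of the 18 lists (1 point per gene), with the median of each list as a bar. Dmc1 lies at -4.66, the other genes have a median of 0.64, and most lists of meiosis and recombination lie around 0, while ciliated oviduct genes have a median of 3.98 and granulosa and steroidogenic genes of -2.33.

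Regulators that act upstream were described in 2 lists. Germline genes are kept silent in somatic cells by DNA methylation and by the PRC1.6 and G9a-GLP complexes, and of 20 measured repressors 16 were lower and 4 higher in Nedd9-null tumours (median -0.31). The DNA methyltransferase gene Dnmt3b read 307 to 500.2 in Nedd9-null tumours against 625 to 765 in Nedd9-WT tumours (-0.72, SE 0.19, limma adjusted p = 0.0985; 0.0227 without Nedd9-null replicate 1). Ehmt1, which encodes GLP, differed by -0.81 (limma adjusted p = 0.129), and Rnf2, a PRC1 ubiquitin ligase gene, by -0.77 (limma adjusted p = 0.137; 0.0312 without that tumour). Of 13 measured genes of retinoic acid supply and response, 9 were lower and 4 higher (median -0.28). Aldh1a2, which makes retinoic acid, differed by -5.36 (SE 1.80, limma adjusted p = 0.137), with 27.1 to 15321 in Nedd9-null tumours against 12604 to 22310 in Nedd9-WT tumours, and the top Nedd9-null value was again replicate 1; without it the difference was -7.13 (limma adjusted p = 0.00422). Crabp1, a retinoic acid binding protein gene, differed by 3.55 (SE 0.92, limma adjusted p = 0.0976, and 0.0292 without that tumour). Crabp1 was present on 4 Nedd9-null and 2 Nedd9-WT arrays, where it read 2.9 to 11.2 in Nedd9-WT tumours. It thus passed the filter on dim signals through the Nedd9-null arrays alone. Dhrs3, which turns retinal back into retinol, differed by -0.97 (SE 0.24, limma adjusted p = 0.0931, and 0.0065 without Nedd9-null replicate 1).

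Markers of the cells in which Dmc1 normally works were mostly faint. Of 16 oocyte markers, 3 (Figla, Zp1 and Zp2) were well above background on no array, and 4 (Gdf9, H1f8, Kit and Zp3) were present on all 8. Between 5 and 8 were present per Nedd9-null array and between 7 and 10 per Nedd9-WT array, and the summed scaled signal was 456 to 3171 in Nedd9-null tumours against 1565 to 5974 in Nedd9-WT tumours. Kit, a receptor gene that somatic cells also express, alone read 233 to 2668 in Nedd9-null tumours against 1296 to 5583 in Nedd9-WT tumours. The top Nedd9-null sum, Kit and Gdf9 values were all those of replicate 1 and lay inside the Nedd9-WT range. Ddx4, the germ cell helicase gene, read 2.7 to 7.1 in Nedd9-null tumours against 12.7 to 47.6 in Nedd9-WT tumours and was present on 2 and 4 arrays of these genotypes (-2.28, SE 0.47, limma adjusted p = 0.0814; 0.0120 without Nedd9-null replicate 1). Gdf9, an oocyte growth factor gene, read 40.5 to 108 in Nedd9-null tumours against 103 to 199 in Nedd9-WT tumours (-1.64, limma adjusted p = 0.0901; 0.00285 without that tumour). Padi6, of the oocyte cytoplasmic lattice, was present on 0 Nedd9-null and 3 Nedd9-WT arrays. Zp3, of the egg coat, differed the other way (1.66, SE 0.26, limma adjusted p = 0.0601; 0.00702 without that tumour). Of 8 measured oocyte markers, 5 had differences below 0 and 3 above (median -1.31). Of these 5, Padi6, Ddx4 and Nlrp5 passed the filter on dim signals through the Nedd9-WT arrays alone. Without Nedd9-null replicate 1, 4 passed lower (Padi6, Ddx4, Gdf9 and Kit; 8.37% of all genes did) and Zp3 passed higher (10.3% did). The oocyte list score was -0.03 in Nedd9-null replicate 1, the tumour with the lowest Dmc1, and -1.44 to -1.002 in the other Nedd9-null tumours, against -0.61 to 0.41 in Nedd9-WT tumours. The part of these markers in the difference of Dmc1 was not tested.

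Markers of spermatogenic cells had mixed directions. Of 18 on the array, 4 (Asz1, Mov10l1, Tdrd1 and Tdrd9) were well above background on no array, and 9 were present on all 8. Their summed signal was 1734 to 5496 in Nedd9-null tumours against 2160 to 3922 in Nedd9-WT tumours. Of 13 measured, 8 were higher and 5 lower (median 0.22). Among the lists of somatic cell types, that of leukocytes and endothelium had 5 genes higher and 5 lower (median -0.02). The other lists of somatic cell types had medians farther from 0. Granulosa and steroidogenic genes were lower in 11 of 14 (median -2.33), with list scores of -3.84 to -0.58 in Nedd9-null tumours against -0.46 to 0.39 in Nedd9-WT tumours. Ciliated oviduct genes were higher in 15 of 15 (median 3.98), with summed signals of 68058 to 168897 in Nedd9-null tumours against 10597 to 24455 in Nedd9-WT tumours. The sum of 68058 was that of Nedd9-null replicate 1, where Mcidas alone read 56923, against 7191 to 19732 in Nedd9-WT tumours. The leukocyte gene Itgam had nearly the same values, 57296 in that tumour against 6932 to 19002 in Nedd9-WT tumours. Whether the Mcidas probe reads ciliated cells was not tested. The list score of the ciliated oviduct genes was 1.33 in Nedd9-null replicate 1 and 4.64 to 5.16 in the other Nedd9-null tumours. In Nedd9-WT tumours it was -0.70 to 1.27. Epithelial genes were higher in 13 of 13 (median 1.03). Their list score was -0.26 in Nedd9-null replicate 1, inside the Nedd9-WT range of -0.38 to 0.48. It was 1.28 to 2.10 in the other Nedd9-null tumours. With 8 arrays 0 genes of these lists passed limma. Without Nedd9-null replicate 1, 7 of 14 granulosa and steroidogenic genes passed lower and 1, Fst, passed higher. By the same fit 13 of 15 ciliated oviduct genes and 6 of 13 epithelial genes passed higher. Of 10 leukocyte and endothelial genes, 1, Eng, passed lower. Of all genes 18.7% passed, 8.37% lower and 10.3% higher. Cyp11a1, Amh and Fshr, among those passing lower, met the filter on dim signals through the Nedd9-WT arrays alone. Dnah5, among those passing higher, met it through the Nedd9-null arrays alone. The part of these cell types in the values of Dmc1 and Rec8 was not tested.

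Genes whose signal followed that of Dmc1 were found by Pearson correlation, a description over arrays that differ by genotype. Over the 8 arrays, among 19169 named genes, the closest were Arnt (0.982), Ddx50 (0.978), 1700020D05Rik (0.976), Ppp1r12c (0.972), Morc2a (0.971) and Ddx52 (0.969). Each differed far less than Dmc1, by between -0.59 (Arnt, the partner of hypoxia and dioxin receptor factors) and -0.37 (Ddx52, an RNA helicase gene). The other meiotic genes ranked well below, with Mnd1 at 0.557 and Smc1b at 0.398 the only positive values among the 8 and Stra8 (-0.826) and Rec8 (-0.712) the lowest. After the genotype means were taken out, the closest were Gm7117 (0.993), Lfng (0.983), Gm16519 (0.982), Mtmr14 (0.980), Actb (0.979) and Rpl35a (0.979), none of which is a meiotic gene of the lists. On that measure Rec8 was at 0.675, Smc1b at 0.438, Psmc3ip at 0.331, Sycp2 at 0.232 and Stra8 at 0.108, while Mnd1 was at -0.104, Hormad1 at -0.386 and Sycp3 at -0.466. The signs of Rec8, Psmc3ip, Sycp2, Stra8 and Mnd1 were thus opposite to those over the 8 arrays.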

How the data were processed

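RNA from 4 Nedd9-null and 4 Nedd9-WT tumours, 500 ng each, was labelled with Cy3 and hybridised to 1-colour Agilent arrays, per the labels' protocols; the labels place the tumours at about 2000 mm3 but differ on whether below or above. The deposited intensity values were made with Agilent Feature Extraction 9.5.3, per the submitters' processing notes, and were background-subtracted and detrended within arrays, per the file headers. Flags for outliers, saturation and background were used as deposited. The authors' log2 table follows the log2 median spot signal (r = 0.999 or higher), with an unstated background step, and served as an alternative. Probe coordinates are in mm9, per the file headers.

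Control spots (1377 of 44397) and outlier spots (194 to 292) were dropped, saturated spots (15 to 42) were kept, and spots were averaged to 39429 probes. The log2 intensity minus the 75th percentile of each array was tested with limma (version 3.58.1, under R 4.3.3) by a 2-sided moderated test with Benjamini-Hochberg adjustment, checked on simulated data. A probe had to be well above background on 3 of 4 arrays of a genotype, 27 probes lacking a value were dropped, and the brightest probe represented a gene. Names were updated through a RefSeq table (GRCm38.p6), with 9249 probes keeping the name of the files. A gene at background on all arrays of a genotype got a bound: its mean in the brighter genotype over, per array of the other, the higher of its own value and the lowest signal well above background.

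The genes and lists were chosen with earlier results of these data known. Named genes are the 10 genes, up to 4 per list with the smallest p (not all are printed), the 5 neighbours per side of Dmc1 and the 6 genes most like it by each correlation; Smc1a, Rec8's neighbours and the markers named by presence were added to these by role, position or flag. Samples are separate mice. Replicate numbers did not pair the tumours: the correlations of deviations within the numbers were -0.05, -0.23, -0.04 and -0.09.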

Additional observations from a re-analysis of the deposited data

Results flagged for a closer look

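In 20 sets of 4 values, 2 per gene, the tumour farthest from the others was set against Dixon's 95% limit for the gap divided by the range, which chance passes in about 1 of 20 sets. Rec8 in Nedd9-null tumours passed (ratio 0.879), with replicate 1 at a log2 value of 0.03 (scaled signal 1021) and the others at 9176 to 12431. Sycp1 in Nedd9-null tumours passed (ratio 0.890), with replicate 1 at -6.55 (10.6) and the others, not well above background, at 0.88 to 1.16. Psmc3ip in Nedd9-WT tumours passed (ratio 0.885), with replicate 4 at 0.28 (1215) and the others at 1831 to 1931. Dmc1 passed in neither genotype.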

How the results depend on the processing

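The Dmc1 difference kept its direction under all 17 alternatives and both other probes, at -4.88 to -3.70. It moved by more than the spread between tumours with normexp (-3.70) and at probe A_55_P2147066 (-3.90, an alternative chosen after seeing the data), and ranged from -4.88 to -4.35 with 1 tumour left out. Of the other 8 genes, 2 or 3 had differences below 0 (2 of 5 with genes above background on all 8 arrays, 3 of 9 with no filter). With 1 tumour left out 0 to 2 passed limma, the 2 without Nedd9-null replicate 1, where 18.7% of all genes passed. With array quality weights 2 passed (Rec8 and Stra8), as did 5978 of all 25536 genes. Stra8 met the filter on dim signals through the Nedd9-null arrays alone. Psmc3ip reversed with the median scale (-0.0098) and Hormad1 without Nedd9-null replicate 1 (-0.026, and up to 1.77 with other tumours left out). The median scale moved the median of all genes to -0.16, so small list medians also shift downward with it.

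The count over all genes, 17, was unstable: 4 with the median scale, 4 with quantile normalization, 7 with genes above background on all 8 arrays, 5978 with array weights, and 0 to 4777 with 1 tumour left out, highest without Nedd9-null replicate 1. Of the 199 list genes, 1 passed with normexp, 1 with the authors' table, 65 with array weights and 0 to 49 with 1 tumour left out. With the replicate number as a block, 0 of all genes and 0 of the 8 passed, but the tumours share only a number. The cause of these shifts was not tested. Genes near background (Sycp1, Sycp2, Hormad1, Stra8) are limited by signal, and 4 tumours per genotype limit the rest. The size of the Dmc1 fold is also limited by the low signals of the Nedd9-null tumours.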
